A study of Mus musculus with 8 samples.

Results

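The 10 genes described here encode defining proteins of megakaryocytes, the marrow cells that shed platelets, and of the platelets themselves. They were taken by symbol from a table of raw read counts: Pf4, Itga2b, Itgb3, Gp1ba, Gp1bb, Gp5, Gp9, Vwf, Tubb1 and Thbs1, 10 of 23337 genes in the table. All 10 were found, and all 10 passed the filter on low counts in each comparison. RNA was sequenced from bone marrow of C57BL/6 mice aged 4 months in 4 groups of 2 libraries. Both genotypes carry JAK2 V617F on 1 allele, a change that activates the kinase JAK2 and drives myeloproliferative disease, and the mice were labelled JAK2V617F/+ Plek2+/+ or JAK2V617F/+ Plek2-/-. Plek2 encodes pleckstrin-2, a relative of the platelet protein pleckstrin. From each genotype, cells positive for the red cell surface antigen TER119 (erythroblasts) were purified straight from marrow, and c-Kit-positive cells (hematopoietic stem and progenitor cells, called progenitors here) were purified from lineage-negative marrow. What drives the mutant JAK2 allele, which part of Plek2 was removed and how many mice stand behind a library are not given in the labels, and mice without the JAK2 change are not analysed here.

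Megakaryocytes arise from progenitors that share their origin with red cells, and the factors GATA1, FLI1, RUNX1 and NFE2 switch on their genes as they mature. Platelets stick to damaged vessel walls when the receptor complex GPIb-IX-V, made of the products of Gp1ba, Gp1bb, Gp9 and Gp5, catches von Willebrand factor (Vwf). They clump when integrin alphaIIb-beta3, made of the products of Itga2b and Itgb3, binds fibrinogen. Platelet factor 4 (Pf4) and thrombospondin-1 (Thbs1) are released from platelet alpha granules, and Tubb1 encodes the beta-1 tubulin of the platelet's marginal band. Some of these genes are also active elsewhere: Vwf in endothelium and in some stem cells, Itga2b in early progenitors, and Thbs1 in monocytes and many stromal cells. JAK2 signals for the thrombopoietin receptor, and overproduction of platelets is a known feature of JAK2-driven disease.

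Library totals ran from 16038035 to 23521726 counts, and levels are given as counts-per-million (CPM) on totals scaled by the trimmed mean of M values (TMM) over all 8 libraries. Nothing in the labels ties a group's libraries to different mice, so p-values measure the spread between these samples, which may be technical. The populations carried their defining RNAs: of 8 erythroid markers 8 were called higher in erythroblasts under either label, and Kit stood at 16.2 to 21.2 CPM in erythroblasts against 117 to 163 CPM in progenitors. Plek2 held 1770 and 1894 reads in erythroblasts labelled Plek2+/+ and 616 and 781 in those labelled Plek2-/-, a 2.32-fold fall (edgeR adjusted p = 9.92e-05). In progenitors it ran against the label, with 29 and 21 reads under Plek2+/+ and 130 and 173 under Plek2-/- (5.55-fold higher, edgeR adjusted p = 0.00253). The X-linked RNA Xist exceeded the Y-linked Ddx3y in the Plek2+/+ libraries and the order was opposite in the others, so label and sex went together in 8 of 8 libraries and cannot be told apart. Plek2+/+ and Plek2-/- therefore name the libraries' labels throughout.

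**Figure D1:**
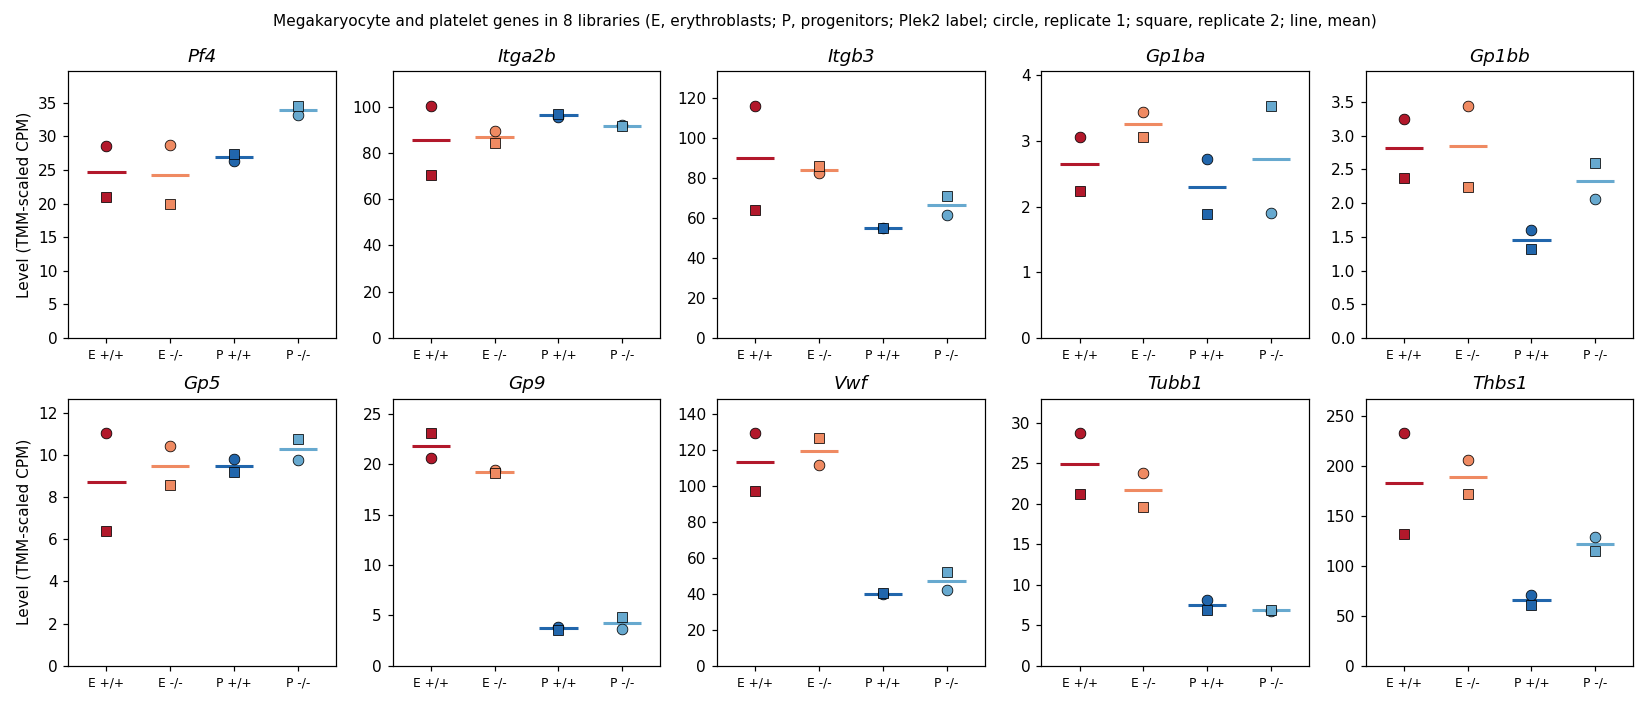
Level of each of the 10 genes in TMM-scaled CPM (vertical axis, linear from 0) in the libraries of 4 groups (horizontal axis; circles replicate 1, squares replicate 2, lines group means). Gp9, Vwf and Tubb1 are separated by population under both labels, Thbs1 takes an intermediate level in Plek2-/- progenitors, and the Plek2+/+ erythroblast libraries lie far apart for Itgb3, Gp5 and Thbs1.

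Set per kilobase of exon, so that genes of different length can be compared, Pf4 was the most abundant of the 10 in each group. Its level was 34.3 ± 7.40 CPM per kb in Plek2+/+ erythroblasts, 33.7 ± 8.63 in Plek2-/- erythroblasts, 37.3 ± 1.13 in Plek2+/+ progenitors and 47.0 ± 1.42 in Plek2-/- progenitors (SD, n = 2 each). This chemokine thus lay above 88.8% to 96.1% of the genes detected in its group. In erythroblasts the order went on with Thbs1 (30.0 ± 11.7 CPM per kb under Plek2+/+ and 31.2 ± 3.96 under Plek2-/-, SD, n = 2 each) and Gp9 (24.8 ± 1.97 and 21.9 ± 0.306, SD, n = 2 each). Pf4 and Thbs1 overlapped in erythroblasts under both labels, so their order there is not beyond their spread, and so did Thbs1 and Gp9 under Plek2+/+. Tubb1, Itga2b and Itgb3 followed at means between 14.3 and 17.7 CPM per kb, in that order under Plek2+/+ and with Itga2b before Tubb1 under Plek2-/-, and neighbours in each order overlapped. In Plek2+/+ progenitors the order after Pf4 was Itga2b at 17.6 ± 0.195, Thbs1 at 10.9 ± 1.14 and Itgb3 at 9.35 ± 0.0177 CPM per kb (SD, n = 2 each), with no overlap between these neighbours. In Plek2-/- progenitors Thbs1, at 20.1 ± 1.60 CPM per kb, stood above Itga2b, at 16.8 ± 0.0188 (SD, n = 2 each). Gp1ba and Gp1bb were the scarcest of the 10 in each group, at means of 0.698 to 1.36 CPM per kb, and stood above only 31.5% to 37.5% of detected genes.

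**Figure D2:**
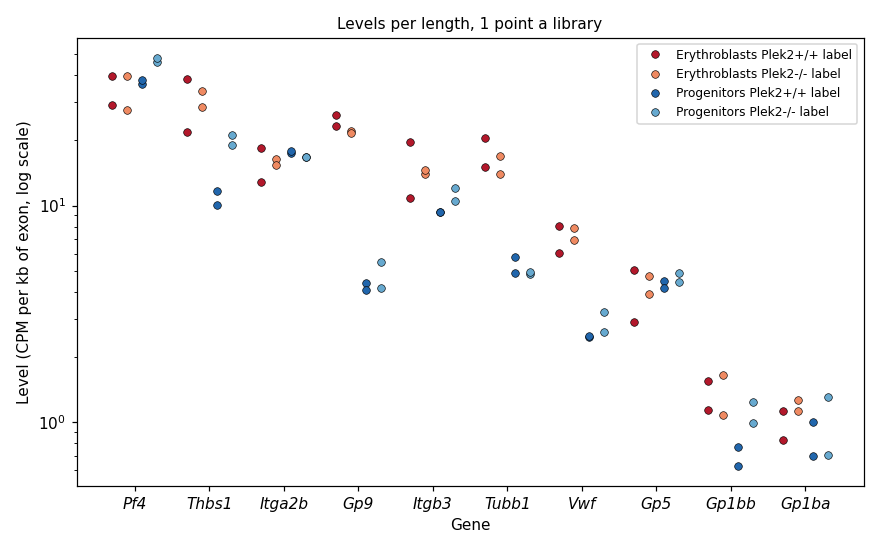
Level of each gene in CPM per kb of exon (vertical axis, log scale), 1 point a library, with genes ordered from left to right by their mean over the groups. Pf4 leads in each group and Gp1bb and Gp1ba are lowest, while Gp9, Tubb1 and Vwf show a gap between erythroblast (red) and progenitor (blue) libraries.

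The first comparison asks how the genes differ between the erythroid and the progenitor population. Under the Plek2+/+ label 6 of 10 were higher in erythroblasts and 0 were lower by edgeR's quasi-likelihood test, and under Plek2-/- 4 were higher and 1 lower. Gp9, Tubb1, Vwf and Thbs1 were called higher in erythroblasts under both labels. Most genes of the table differed between the populations: 36% of all 13365 genes tested were called higher and 37.8% lower under Plek2+/+, and 37.5% and 39.2% under Plek2-/-. The median log2 fold change of the 10 was 0.84 under Plek2+/+ and 0.31 under Plek2-/-, against -0.06 and -0.07 over all genes. With library sizes only in place of TMM the median of all genes moved by -0.81 and -0.79, and 3 of the 10 were then called lower under either label; values are given relative to TMM scaling. In bulk samples, fewer cells of a type and less RNA per cell cannot be told apart.

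The subunits of GPIb-IX-V did not move together. Gp9 encodes glycoprotein IX, the small subunit (chromosome 6, 87778072 to 87779768, plus strand, GRCm38), and stood at 20.6 and 23.1 CPM in Plek2+/+ erythroblasts and 19.5 and 19.1 in Plek2-/- erythroblasts, against 3.85 and 3.57 in Plek2+/+ and 3.66 and 4.81 in Plek2-/- progenitors. Each erythroblast library was thus far above each progenitor library, by 5.89-fold under Plek2+/+ (95% interval 4.66 to 7.48, edgeR adjusted p = 8.60e-09) and 4.52-fold under Plek2-/- (3.59 to 5.71, edgeR adjusted p = 3.24e-08). Gp1ba encodes the large subunit that binds von Willebrand factor (chromosome 11, 70639122 to 70642036, plus strand). It stood at 3.06 and 2.24 CPM in Plek2+/+ and 3.44 and 3.06 in Plek2-/- erythroblasts, against 2.72 and 1.89 in Plek2+/+ and 1.91 and 3.54 in Plek2-/- progenitors. The populations overlapped, and the erythroblast to progenitor ratio had 95% intervals of 0.715 to 1.93 and 0.734 to 1.89. Per kb, Gp9 exceeded Gp1ba by 17.5 to 31.8 times in erythroblast libraries and 4.20 to 5.92 times in progenitor libraries.

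Gp5 encodes glycoprotein V, a thrombin substrate that associates with the complex (chromosome 16, 30307685 to 30310779, minus strand). It was nearly level across the groups, at 6.38 to 11.0 CPM in erythroblast and 9.17 to 10.7 CPM in progenitor libraries, with 95% intervals of the ratio of 0.676 to 1.26 under Plek2+/+ and 0.675 to 1.26 under Plek2-/-. Without Plek2+/+ erythroblast replicate 1 it was called lower under that label (log2 -0.50, edgeR adjusted p = 0.0427, over alternatives from 0.00162 to 0.826). Gp1bb encodes the beta subunit of glycoprotein Ib. Its gene (chromosome 16, 18620317 to 18622403, minus strand) shares 1902 of its 2087 exon bases with Sept5 on the same strand, so its counts depend on how reads in shared exons were assigned and are uncertain. They gave 3.24 and 2.38 CPM in Plek2+/+ erythroblasts against 1.60 and 1.32 in Plek2+/+ progenitors (1.95-fold higher, edgeR adjusted p = 0.0103), and 3.44 and 2.24 against 2.06 and 2.59 under Plek2-/- (not called, edgeR adjusted p = 0.396). The Gp1bb call rested on 34 to 53 reads a library and was lost without Plek2+/+ erythroblast replicate 1 (edgeR adjusted p = 0.0827), without Plek2+/+ progenitor replicate 2 (edgeR adjusted p = 0.0797) and with library sizes only (edgeR adjusted p = 0.639), over alternatives from 0.00208 to 0.639.

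Promoter sequences are shown for Gp9 and Tubb1 (values follow), called between the populations under both labels, and for Gp1ba and Gp5, called under neither. The genes were picked by these calls, so differences between their sequences test nothing. They come from RefSeq on GRCm38.p6, 250 bases before to 50 after the annotated start, on the gene's strand. 7 of the 10 genes were matched: Tubb1, Pf4, Gp9, Gp1ba, Itga2b, Gp1bb and Gp5. Vwf and Thbs1, also called under both labels, and Itgb3 were not matched. Capitals mark GATA words (AGATAA or TGATAA) and ETS words (AGGAAG or CGGAAG), read on both strands, which are short forms of the sites that GATA1 and FLI1 type factors bind.
Gp9 (chr6:87777820-87778119, plus strand): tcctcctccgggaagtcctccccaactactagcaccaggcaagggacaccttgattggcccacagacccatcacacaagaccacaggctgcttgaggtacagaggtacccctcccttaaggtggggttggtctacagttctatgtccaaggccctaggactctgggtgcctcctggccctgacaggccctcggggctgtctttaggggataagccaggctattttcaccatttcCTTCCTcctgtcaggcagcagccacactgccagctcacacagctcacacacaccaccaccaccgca
Gp1ba (chr11:70638872-70639171, plus strand): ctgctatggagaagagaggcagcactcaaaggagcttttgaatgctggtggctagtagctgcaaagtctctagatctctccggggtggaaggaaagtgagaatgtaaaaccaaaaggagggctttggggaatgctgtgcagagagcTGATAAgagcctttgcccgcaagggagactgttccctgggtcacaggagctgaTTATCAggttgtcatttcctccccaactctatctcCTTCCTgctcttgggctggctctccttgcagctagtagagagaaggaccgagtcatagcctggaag
Gp5 (chr16:30310732-30311031, minus strand): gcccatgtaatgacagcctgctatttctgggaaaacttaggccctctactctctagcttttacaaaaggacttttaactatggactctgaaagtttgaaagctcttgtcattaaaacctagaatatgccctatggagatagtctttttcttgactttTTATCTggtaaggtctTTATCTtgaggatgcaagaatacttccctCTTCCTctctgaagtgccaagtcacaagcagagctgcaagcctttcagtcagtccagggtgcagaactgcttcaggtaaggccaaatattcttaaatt
Tubb1 (chr2:174450345-174450644, plus strand): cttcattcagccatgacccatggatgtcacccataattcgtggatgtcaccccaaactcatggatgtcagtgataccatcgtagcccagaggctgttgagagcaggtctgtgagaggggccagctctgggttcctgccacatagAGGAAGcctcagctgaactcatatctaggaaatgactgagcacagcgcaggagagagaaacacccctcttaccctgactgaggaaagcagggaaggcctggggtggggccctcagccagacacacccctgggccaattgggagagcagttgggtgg
An ETS word was present in 7 of 7 member promoters, against 46.5% of all 32851 promoters in the table. In Gp9 and in Gp1ba it began 16 bases before the start, and in Gp5 it began 48 and in Tubb1 106 bases before it. A GATA word was present in 3 of 7 (Gp1ba, Gp5 and Pf4), against 18.6% of all promoters. Gp9, Tubb1, Itga2b and Gp1bb held none in this window, and of these Itga2b was not called under either label. RUNX words (TGTGGT or TGCGGT) were found in 1 of 7, Gp9 (22.4% of all promoters), and the MAF word TGCTGA in 1 of 7, Itga2b (19.5%). No GATA word overlapped an ETS word in the printed sequences, and a match is a string of letters, not a measured site.

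Per kb, the RNAs of the integrin alphaIIb-beta3 subunits were nearly level in erythroblast libraries and unequal in progenitor libraries. Itga2b (chromosome 11, 102453297 to 102470122, minus strand), the alpha subunit and an early mark of the lineage, stood at 100 and 70.3 CPM in Plek2+/+ and 89.6 and 84.1 in Plek2-/- erythroblasts, against 95.5 and 97.0 in Plek2+/+ and 91.9 and 91.7 in Plek2-/- progenitors. It was not called under either label, with 95% intervals of the erythroblast to progenitor ratio of 0.737 to 1.07 and 0.784 to 1.14. Both Plek2-/- erythroblast libraries lay just below both progenitor libraries, and 87.9% of all genes were likewise separated in one direction or the other (89.1% under Plek2+/+). Under Plek2+/+ it was called lower without erythroblast replicate 1 (log2 -0.38, edgeR adjusted p = 0.00450) and with library sizes only (1.89e-05), over alternatives up to 0.404. Itgb3 (chromosome 11, 104608000 to 104670476, plus strand), the beta subunit, which also pairs with the alpha-V chain in other cells, stood at 116 and 64.0 CPM in Plek2+/+ erythroblasts against 55.1 and 55.2 in Plek2+/+ progenitors. All erythroblast libraries lay above all progenitor libraries of that label, by 1.64-fold (95% interval 1.23 to 2.18, edgeR adjusted p = 0.00440), though with library sizes only the value was -0.09 and no longer called (edgeR adjusted p = 0.669, over alternatives from 6.66e-12). Under Plek2-/- it stood at 82.5 and 85.9 against 61.6 and 71.2 CPM, also separated (1.27-fold, not called, edgeR adjusted p = 0.116). Per kb, the ratio of Itga2b to Itgb3 was 0.933 to 1.19 in erythroblast and 1.39 to 1.90 in progenitor libraries.

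The genes of released proteins split as well. Vwf (chromosome 6, 125546774 to 125686679, plus strand), the platelet tether, stood at 129 and 96.8 CPM in Plek2+/+ and 112 and 126 in Plek2-/- erythroblasts, against 39.6 and 40.2 in Plek2+/+ and 42.1 and 52.0 in Plek2-/- progenitors. Each erythroblast library was above each progenitor library, by 2.83-fold under Plek2+/+ (95% interval 2.31 to 3.46, edgeR adjusted p = 3.56e-07) and 2.53-fold under Plek2-/- (2.07 to 3.09, edgeR adjusted p = 8.34e-07). Endothelial cells also make Vwf. The summed level of 12 endothelial markers, of which Pecam1 was the largest part, was 67.3 to 86.9 CPM in erythroblast and 134 to 160 CPM in progenitor libraries. Of the 11 tested, 1 was higher in erythroblasts under either label, Stab2 of marrow sinusoids (5.34-fold under Plek2+/+, edgeR), and 5 were lower under Plek2+/+ and 6 under Plek2-/-. Pecam1 had means of 32.5 and 24.9 CPM in Plek2+/+ and Plek2-/- erythroblasts and 103 and 87.3 CPM in Plek2+/+ and Plek2-/- progenitors. Stab2 had means of 25.7 and 20.3 CPM in Plek2+/+ and Plek2-/- erythroblasts and 4.83 and 2.48 CPM in Plek2+/+ and Plek2-/- progenitors. Over all libraries Egfl7 had 10.5 to 28.7 CPM, Cdh5 0.748 to 2.72 CPM and Cldn5 0 to 5 reads. The part of endothelial RNA in the Vwf level was not tested.

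Pf4 (chromosome 5, 90772435 to 90773383, plus strand) followed another order. It stood at 28.5 and 21.0 CPM in Plek2+/+ and 28.7 and 19.9 in Plek2-/- erythroblasts, against 26.3 and 27.4 in Plek2+/+ and 33.1 and 34.6 in Plek2-/- progenitors. Under Plek2+/+ the populations overlapped (95% interval of the ratio 0.725 to 1.17), and under Plek2-/- erythroblasts were 1.40-fold lower (edgeR adjusted p = 0.0147). That fall was not called without Plek2-/- erythroblast replicate 2 (log2 -0.24, edgeR adjusted p = 0.167) or without Plek2-/- progenitor replicate 2 (edgeR adjusted p = 0.0532), over alternatives from 1.44e-05 to 0.167. Thbs1 (chromosome 2, 118111876 to 118127133, plus strand), an adhesive granule glycoprotein, stood at 233 and 132 CPM in Plek2+/+ and 206 and 172 in Plek2-/- erythroblasts, against 71.0 and 61.3 in Plek2+/+ and 129 and 115 in Plek2-/- progenitors. It was higher in erythroblasts by 2.76-fold under Plek2+/+ (95% interval 2.06 to 3.70, edgeR adjusted p = 1.58e-05). Under Plek2-/- the step was 1.55-fold (1.17 to 2.06, edgeR adjusted p = 0.00837), but with library sizes only it turned to log2 -0.16 (edgeR adjusted p = 0.483) and without Plek2-/- progenitor replicate 2 it was not called (edgeR adjusted p = 0.0538), over alternatives from 2.54e-10.

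Thbs1 is also made by monocytes and macrophages, and the markers of these cells differed between the populations. Of 11 markers 7 were higher and 4 lower in erythroblasts under Plek2+/+, and 6 and 4 under Plek2-/-. The complement genes C1qa and C1qb of tissue macrophages had means of 134 and 100 CPM in Plek2+/+ erythroblasts against 2.47 and 1.85 CPM in Plek2+/+ progenitors, while the monocyte receptor Ccr2 was higher in progenitors (475 against 214 CPM). Their part in the Thbs1 level was not tested.

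Tubb1 (chromosome 2, 174450695 to 174457882, plus strand), whose tubulin builds the platelet's microtubule coil, stood at 28.7 and 21.2 CPM in Plek2+/+ and 23.9 and 19.6 in Plek2-/- erythroblasts, against 8.12 and 6.84 in Plek2+/+ and 6.78 and 6.91 in Plek2-/- progenitors. The populations were fully separated, by 3.36-fold under Plek2+/+ (95% interval 2.62 to 4.30, edgeR adjusted p = 6.15e-07) and 3.17-fold under Plek2-/- (2.47 to 4.08, edgeR adjusted p = 9.66e-07). Gp9, Vwf and Tubb1 were called higher in each of 10 alternatives under each label.

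**Figure D3:**
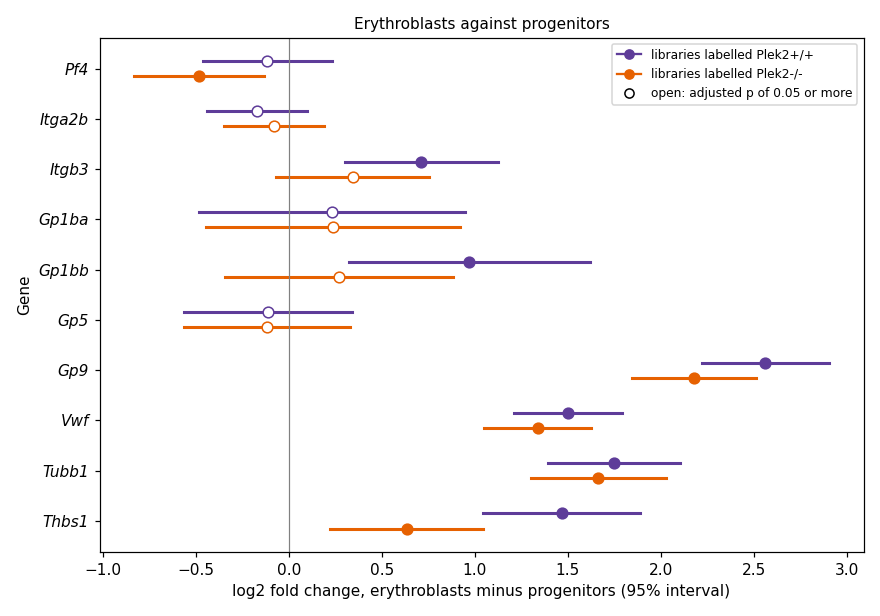
Fitted log2 fold change of erythroblasts minus progenitors (horizontal axis) with its 95% interval for each gene, for libraries labelled Plek2+/+ (purple) and Plek2-/- (orange); filled points have an edgeR adjusted p below 0.05. Gp9, Tubb1, Vwf and Thbs1 lie to the right of 0 under both labels, from 0.63 for Thbs1 to 2.56 for Gp9, and Itga2b, Gp1ba and Gp5 have intervals that span 0.

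Other megakaryocyte and platelet genes differed between the populations in both directions, as did most genes. Over all 13365 genes tested, 36% were called higher and 37.8% lower in erythroblasts under Plek2+/+, and 37.5% and 39.2% under Plek2-/-. The counts below are to be read beside these shares. Of 53 genes on 4 wider lists, 20 were higher and 22 lower in erythroblasts under Plek2+/+ (median log2 -0.14), and 14 and 30 under Plek2-/- (median -0.57); with library sizes only the Plek2+/+ counts were 11 and 35. Of 12 transcription factors 6 were higher and 6 lower under either label. The higher ones included Tal1 (9.76-fold under Plek2+/+, SE 0.11 on the log2 scale) and Gata1 (7.10-fold, SE 0.09), which red cells use as well, and the lower ones Gata2 (10.2-fold, SE 0.19) and Etv6 (5.06-fold, SE 0.09), which act in stem and progenitor cells. Of 14 platelet receptors 4 were higher and 6 lower under Plek2+/+, and 3 and 8 under Plek2-/-. Clec1b, the podoplanin receptor CLEC-2, was 5.33-fold higher in Plek2+/+ erythroblasts, and Pear1, a receptor that strengthens platelet contacts, was 4.21-fold lower. Of 11 granule proteins 3 were higher and 5 lower under Plek2+/+, and 2 and 6 under Plek2-/-. Ppbp, a platelet chemokine gene like Pf4, was 5.27-fold higher in Plek2+/+ erythroblasts, and F13a1, a clot-stabilising factor that monocytes also make, was 4.86-fold lower. Of 16 cytoskeleton and signalling genes 7 were higher and 5 lower under Plek2+/+, and 3 and 10 under Plek2-/-, where Myl9, a myosin light chain, was 5.46-fold higher and Rasgrp2, an activator of the GTPase Rap1, 2.10-fold lower under Plek2+/+. Among the marker lists, 9 of 9 neutrophil markers were higher in erythroblasts under Plek2+/+ and 9 of 9 lower under Plek2-/-, 5 of 5 mast cell and basophil markers were lower under both, and of 9 stem cell markers 6 and 7 were lower and 1, Mllt3, higher.

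The comparison of labels within erythroblasts asks whether these genes differed between Plek2+/+ and Plek2-/- libraries, in the population with the most Plek2 RNA. Sex went with the label here, and Plek2 reads remained under Plek2-/-, so loss of Plek2 alone was not tested. No gene of the 10 passed the edgeR test, against 2.84% of 12241 genes in that comparison, and 0 of the 10 had an unadjusted p below 0.05 (14.7% of all genes). DESeq2 and limma-voom also called 0, though DESeq2 gave no adjusted p for Gp1ba and Gp1bb. The median log2 fold change of the 10 was 0.02, against 0.01 over all genes, with 6 positive and 4 negative. In 9 of the 10 the libraries of the labels overlapped. Gp9 was the exception, at 20.6 and 23.1 CPM under Plek2+/+ and 19.5 and 19.1 under Plek2-/- (45.5% of genes did not overlap in this comparison), at log2 -0.17 (SE 0.13, edgeR adjusted p = 0.604). The 95% intervals set what the libraries could show. For Itga2b the ratio of Plek2-/- to Plek2+/+ lay between 0.833 and 1.26, for Vwf between 0.878 and 1.28, for Pf4 between 0.751 and 1.29 and for Thbs1 between 0.785 and 1.39. For the scarce Gp1ba it lay between 0.805 and 1.87 and for Gp1bb between 0.634 and 1.59, on 33 to 53 reads a library.

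The libraries of Plek2+/+ erythroblasts stood apart from each other. Replicate 1 was above replicate 2 in 9 of 10 genes, Gp9 being the exception at 1.12-fold lower. The gap was largest for Itgb3 (1.81-fold), Thbs1 (1.75-fold) and Gp5 (1.67-fold), and the median log2 difference of the 10 was 0.43 against 0.00 over 12080 genes that averaged 20 counts or more (quartiles -0.11 to 0.14). Of the 53 genes on the wider lists 36 were higher in replicate 1 and 17 lower. Of 14 platelet receptors 14 were higher (median 1.51-fold), and of 12 megakaryocyte transcription factors 6 were higher and 6 lower. Of 11 granule proteins 7 were higher, and of 16 cytoskeleton and signalling genes 9 (median 1.03-fold). Stem cell markers were higher in 5 of 7 and monocyte and macrophage markers in 8 of 11. Endothelial markers were higher in replicate 1 in 9 of 10, neutrophil markers lower in 9 of 9 and erythroid markers lower in 7 of 8. In Plek2-/- erythroblasts 8 of the 10 genes were higher in replicate 1 (median log2 0.20), in Plek2+/+ progenitors 6 (0.09) and in Plek2-/- progenitors 2 (-0.17). Which Plek2+/+ library was left out set the sign of some label differences. Without Plek2+/+ replicate 1 Itgb3 had a log2 fold change of 0.41, and without Plek2+/+ replicate 2 it had -0.48; no gene was called in either case.

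**Figure D4:**
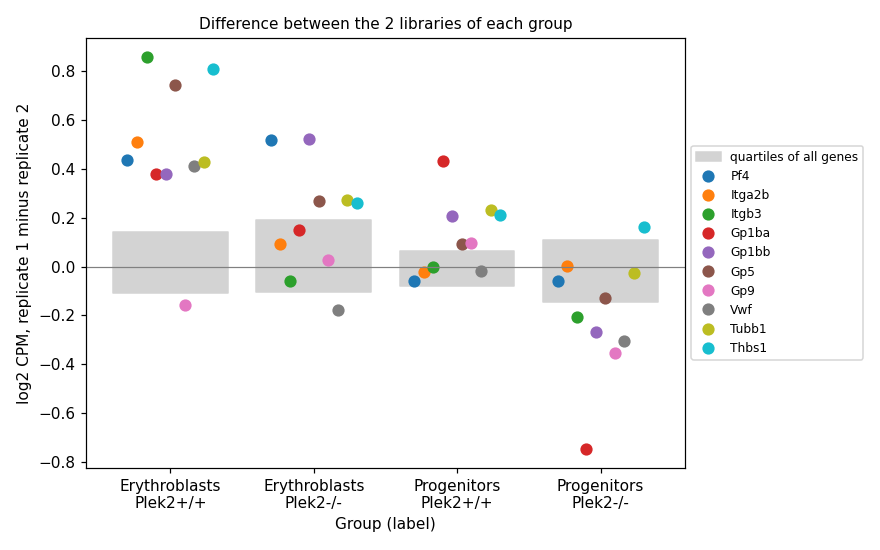
Difference in log2 CPM (0.5 added) between replicate 1 and replicate 2 (vertical axis) in each group (horizontal axis), 1 point a gene; grey bars span the quartiles of all genes averaging 20 counts or more. In Plek2+/+ erythroblasts 9 of the 10 points lie above the grey bar and Gp9 lies below 0.

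In progenitors 2 of the 10 genes were higher under the Plek2-/- label and 0 lower by edgeR, where 4.5% of 13168 genes were called higher and 0.402% lower. They were Thbs1 and Pf4. Thbs1 stood at 71.0 and 61.3 CPM in Plek2+/+ and 129 and 115 CPM in Plek2-/- libraries, which did not overlap. It rose 1.90-fold (95% interval 1.64 to 2.21, log2 0.93, SE 0.09, edgeR adjusted p = 0.00190) and was called in 11 of 11 alternatives, at adjusted p up to 0.0186. Pf4 stood at 26.3 and 27.4 against 33.1 and 34.6 CPM, also with no overlap, and rose 1.30-fold (95% interval 1.14 to 1.47, log2 0.37, SE 0.08, edgeR adjusted p = 0.0353). Its call was less firm: it was lost with DESeq2 (adjusted p = 0.0642), with library sizes only (edgeR adjusted p = 0.0679), in the fit of all 8 libraries (edgeR adjusted p = 0.313) and without Plek2+/+ replicate 1 (0.356) or replicate 2 (0.327), over alternatives from 0.000843. Sex differed between these libraries along with the label.

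Of the other genes, Itgb3, Gp1bb and Vwf had both Plek2-/- progenitor libraries above both Plek2+/+ libraries without passing the test, and Itga2b had both below; 52.2% of all genes did not overlap in this comparison. Itgb3 stood at 55.1 and 55.2 against 61.6 and 71.2 CPM (log2 0.31, SE 0.08, edgeR adjusted p = 0.0911), and Vwf at 39.6 and 40.2 against 42.1 and 52.0 CPM (log2 0.28, SE 0.10, edgeR adjusted p = 0.212). The uncertain Gp1bb had 34 and 39 reads against 53 and 79 (log2 0.74, SE 0.25, edgeR adjusted p = 0.166). Without Plek2-/- replicate 1, 5 genes were called higher, these included, and without Plek2+/+ replicate 1 or replicate 2 only Thbs1. Gp5, Gp9 and Gp1ba had overlapping libraries, with 95% intervals of the ratio of 0.917 to 1.36, 0.868 to 1.62 and 0.743 to 2.11. Tubb1 had a ratio between 0.750 and 1.19 and Itga2b between 0.890 and 1.08. The median log2 fold change of the 10 was 0.30, against -0.01 over all genes, and 5 of the 10 had an unadjusted edgeR p below 0.05 (17.3% of all genes).

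**Figure D5:**
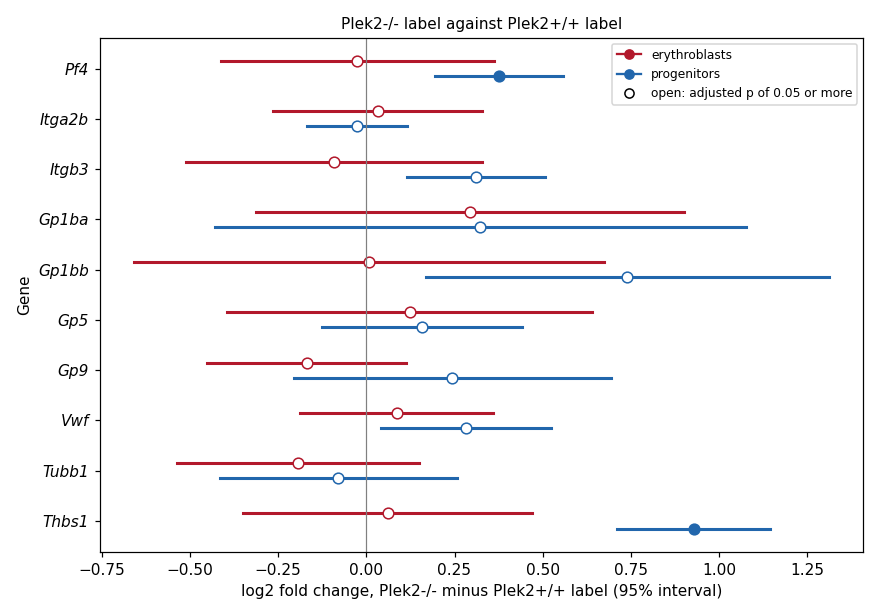
Fitted log2 fold change of libraries labelled Plek2-/- minus Plek2+/+ (horizontal axis) with its 95% interval for each gene in erythroblasts (red) and progenitors (blue); filled points have an edgeR adjusted p below 0.05. Thbs1 at 0.93 and Pf4 at 0.37 in progenitors are the filled points, and each erythroblast interval spans 0.

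Neutrophil marker RNAs moved with the same label in progenitors. Of 9 neutrophil markers 9 were higher under Plek2-/-, and their summed level was 6914 and 4085 CPM in Plek2+/+ and 17758 and 23986 CPM in Plek2-/- libraries; the chemokine receptor Cxcr2 rose 2.86-fold and the collagenase Mmp8 3.29-fold by edgeR. In erythroblasts 6 of 9 were lower under Plek2-/-, among them Lcn2 (1.71-fold) and Ngp (1.51-fold), with summed levels of 18619 and 21481 against 14426 and 13078 CPM. Monocyte and macrophage markers gave 0 calls of 11 in progenitors by edgeR (4 at an unadjusted p below 0.05), at summed levels of 1181 and 1306 against 1141 and 1074 CPM. Of 5 mast cell and basophil markers tested, 1 was lower in progenitors, Prss34 (1.43-fold), and 5 were negative at an unadjusted p below 0.05 (median log2 -0.40), at summed levels of 802 and 854 against 574 and 624 CPM; the list's Mcpt4 and Tpsab1 were at 0 reads in each library. Of 11 endothelial markers tested 1 was lower there, Stab2 (1.89-fold). Stem cell markers gave 0 calls of 9 in progenitors (2 at an unadjusted p below 0.05), with Mllt3 the most abundant at a log2 fold change of 0.03, and erythroid markers 0 of 8 (3 at an unadjusted p below 0.05). The part of these cells in the Thbs1 and Pf4 differences was not tested.

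Whether the label effect differed between populations was tested as an interaction, the effect in erythroblasts minus that in progenitors. None of the 10 passed with edgeR, DESeq2 or limma-voom, against 5.55% of 13365 genes with edgeR; 1 of the 10 had an unadjusted p below 0.05, as did 18.2% of all genes. Thbs1 came nearest, at log2 -0.83 (SE 0.27, 95% interval -1.42 to -0.25, edgeR adjusted p = 0.105), from 0.06 in erythroblasts and 0.93 in progenitors. It was called with the replicate number of the labels as a block (edgeR adjusted p = 0.0231), with no filter on low counts (5.01e-09), without Plek2+/+ erythroblast replicate 2 (0.00446) and without Plek2-/- erythroblast replicate 1 (0.0333), and not in the other 10 of 14 alternatives (adjusted p up to 0.324). Itgb3 was called without Plek2+/+ erythroblast replicate 2 (log2 -0.77, edgeR adjusted p = 0.0120) and had the opposite sign without replicate 1 (0.06), over alternatives up to 0.896. Pf4, at -0.37 (edgeR adjusted p = 0.429), was called without Plek2-/- erythroblast replicate 1 (-0.69, edgeR adjusted p = 0.0421), over alternatives up to 0.760. The population contrast and the label comparisons share libraries, so these values are not independent of each other.

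On the wider lists, 0 of 53 genes rose and 3 fell under Plek2-/- in erythroblasts, where 2.84% of all genes were called: the actin regulator Vasp (1.34-fold, edgeR adjusted p = 0.0286), the actin cross-linker Flna (1.43-fold, edgeR adjusted p = 0.0326) and Rasgrp2 (1.50-fold, edgeR adjusted p = 0.0359; named after its value was seen). None of the 53 was called lower without Plek2+/+ replicate 1, Plek2+/+ replicate 2 or Plek2-/- replicate 2, and 12 were without Plek2-/- replicate 1. All 3 are also active in white blood cells. The transcription factors (most abundant Tal1, log2 0.03), receptors (P2ry1, 0.07) and granule genes (F13a1, -0.45) gave 0 calls each by edgeR, with 2, 1 and 3 at an unadjusted p below 0.05. In progenitors 6 rose and 0 fell, where 4.5% of all genes were called higher and 0.402% lower, among them Vasp (1.65-fold, edgeR adjusted p = 0.00288), the pleckstrin gene Plek (1.46-fold, edgeR adjusted p = 0.00481), the coagulation factor F5 (1.32-fold, edgeR adjusted p = 0.0133), Clec1b (1.90-fold, edgeR adjusted p = 0.0255) and the alpha granule gene Nbeal2 (1.27-fold, edgeR adjusted p = 0.0258). The count of rises was 1 without Plek2+/+ replicate 2, 19 without Plek2-/- replicate 1 and 13 without Plek2-/- replicate 2, and that of falls was 4 and 6 without Plek2-/- replicate 1 and replicate 2. For the interaction, where 5.55% of all genes were called, 8 were lower and 0 higher; 14 were lower without Plek2-/- erythroblast replicate 1, and 5 and 4 without Plek2+/+ progenitor replicate 1 and replicate 2.

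Genes with the pattern most like that of Pf4 over the 8 libraries, by Pearson's r of log2 CPM with 0.5 added, were Nod2 (0.959), Trpc6 (0.957), Sytl4 (0.955), Sned1 (0.941) and F5 (0.936), out of 12070 compared. Of these F5, a factor stored in platelet granules, had means of 61.4 and 51.2 CPM in Plek2+/+ and Plek2-/- erythroblasts and 67.3 and 86.4 CPM in Plek2+/+ and Plek2-/- progenitors. The genes most like Vwf were Mdm2 (0.999), Lrrc57 (0.995), Cox17 (0.994), Snhg3 (0.993) and Podxl (0.993). The points share population and library, and r has no test here. Mdm2 differed between them by less than Vwf did, at 116 and 120 against 72.4 and 78.4 CPM.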

How the data were processed

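The labels' protocols say that total RNA was extracted with TRIzol and libraries were made by a standard Illumina protocol. Per the submitters' processing notes, the tools were STAR 2.5.2a, HTSeq 0.6.1pl, cutadapt 1.13 and DESeq2 1.14.1, and the build was mm10; which annotation and strand setting the counting used, and what each tool did, is not stated in the labels. The authors deposited raw counts (whole reads per gene symbol), which were used, and a normalized table, which was not used here. The libraries of a group differed beyond counting noise (5.92 to 16.5 chi-square units per degree of freedom).

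Tests used edgeR 4.0.16 (R 4.3.3) with TMM scaling, default filterByExpr and a quasi-likelihood fit of all genes that pass, within each population for label effects and over all 8 libraries for the other contrasts. A call is a Benjamini-Hochberg adjusted p below 0.05 over all genes tested. DESeq2 1.42.0 and limma-voom (limma 3.58.1) were alternatives. The scripts were tested on simulated data. Exon lengths and positions come from GENCODE vM21 (GRCm38, which is mm10), placed for 22814 genes (97.8%). Reads carry no molecular identifiers, so the limit that a count of 0 allows, 3 counts (0.0983 to 0.235 CPM), covers counting error only.

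Members and lists were chosen with earlier results of these data known. Named genes are the 10 members, Plek2, from each other list and comparison the 2 calls of lowest adjusted p in each direction (or the most abundant gene), and the 5 genes most like Pf4 and Vwf. The list gene Bin2 was not found by symbol or synonym and Mpig6b has several synonyms in the table, so neither was analysed here. A gene that the rule picks is not reported here. The replicate numbers do not pair the libraries by any label.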

Additional observations from a re-analysis of the deposited data

Results flagged for a closer look

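For Plek2 and for several genes of the wider and marker lists, the label effect differed between erythroblasts and progenitors by the interaction test of the fit of all 8 libraries (edgeR's quasi-likelihood test with Benjamini-Hochberg adjustment, effect in erythroblasts minus effect in progenitors, log2 scale). None of the 10 megakaryocyte and platelet genes was called by this test. The targeted gene Plek2 had -3.66 (SE 0.26, adjusted p = 6.34e-05), lower under Plek2-/- in erythroblasts and higher in progenitors, and the latter goes against its label. Of the wider platelet lists, Vasp had -1.11 (adjusted p = 0.000325), Nbeal2 -0.82 (adjusted p = 0.0112) and Plek -0.72 (adjusted p = 0.00833); Flna (-0.76, adjusted p = 0.0103) and Rasgrp2 (-0.61, adjusted p = 0.0408) were called too, and 8 of 53 genes in all. The neutrophil genes S100a8 and Retnlg had -2.45 and -1.81 (adjusted p = 0.000279 each), and 9 of 9 neutrophil markers were lower by this test. What lies behind these differences was not tested, and sex and label cannot be told apart in either population.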

How the results depend on the processing

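Of 560 values of the 10 genes under alternatives, 49 changed sign, with or without a change of call. Of the rest, 480 kept their side of the threshold, 20 passed it newly and 11 no longer passed it. A value without an adjusted p was taken as not passing. RLE scaling changed none of 50. The cause of each change was not tested. With library sizes only, the erythroblast minus progenitor log2 fold change turned to -0.0946 for Itgb3 and -0.58 for Gp1ba under Plek2+/+, and to -0.44 for Itgb3, -0.55 for Gp1ba, -0.51 for Gp1bb and -0.16 for Thbs1 under Plek2-/-, and 3 genes were called lower under either label, against 0 and 1. The count of genes called higher under Plek2-/- in progenitors, 2, was 1 with library sizes only, 1 with DESeq2, 1 in the fit of all 8 libraries and 4 with no filter on low counts. The interaction gave 1 lower gene, Thbs1, with no filter and 1 with the replicate block. Other sign changes lay near 0. Gp1bb in erythroblasts had -0.0108 with limma-voom and -0.0027 in the fit of all 8 libraries. In the interaction, Gp1ba had -0.0135 with no filter, and Gp5 0.0201 with library sizes only, 0.0029 with DESeq2, 0.0243 with limma-voom and 0.0082 with the replicate block.

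Leaving out 1 library leaves a group with a lone library, which the fit assumes to vary like the others. The count of genes called then ran from 1 to 5 in progenitors (higher), 0 to 2 in the interaction (lower), 0 to 2 for Plek2+/+ (lower) and 0 to 1 for Plek2-/- (lower). Label effects in erythroblasts ran from -0.31 to 0.22 for Pf4, -0.22 to 0.32 for Itga2b, -0.48 to 0.41 for Itgb3, -0.33 to 0.29 for Gp1bb, -0.23 to 0.58 for Gp5, -0.12 to 0.31 for Vwf, -0.41 to 0.0471 for Tubb1 and -0.31 to 0.53 for Thbs1. In progenitors they ran from -0.20 to 0.69 for Gp1ba and -0.21 to 0.0441 for Tubb1. The interaction ran from -0.18 to 0.31 for Itga2b, -0.77 to 0.0621 for Itgb3, -0.36 to 0.53 for Gp1ba, -0.37 to 0.39 for Gp5, -0.39 to 0.0011 for Vwf and -0.32 to 0.0898 for Tubb1. The population difference ran under Plek2+/+ from -0.28 to 0.13 for Pf4, -0.38 to 0.11 for Itga2b, -0.0307 to 0.49 for Gp1ba and -0.50 to 0.26 for Gp5, and under Plek2-/- from -0.12 to 0.76 for Gp1ba, -0.0380 to 0.56 for Gp1bb and -0.24 to 0.0166 for Gp5.

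Over all genes, calls in erythroblasts (348) were 230 with library sizes only, 845 with no filter, 579 with the replicate block and 25 to 995 without 1 library; in progenitors (646) 1315 with no filter and 239 to 2649 without 1 library; in the interaction (742) 1215 with no filter and 401 to 1175 without 1 library. On the wider lists, genes called lower in erythroblasts (3) were 7 with no filter and 6 with the block, those called higher in progenitors (6) were 14 with no filter, those called lower there (0) were 2 with no filter, 1 with library sizes only and 1 with DESeq2, and those lower in the interaction (8) were 14 with no filter. Replicate numbers do not pair the libraries: same-numbered deviations correlated at 0.0343 between the erythroblast groups and -0.0763 between the progenitor groups, and at 0.0461 and 0.102 between the populations under Plek2+/+ and Plek2-/-. The block changed no other call of the 10 genes. With 33 to 108 reads a library, Gp1ba and Gp1bb are the least precisely measured.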
